A study of Homo sapiens with 6 samples.

Results

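The genes described here are the 10 of the SMAD pathway that were followed in KGN cells depleted of FOXL2: SMAD1 to SMAD7, the corepressors SKI and SKIL, and the ubiquitin ligase SMURF2. They were chosen by symbol from 60671 genes in the tables, with the lower level of SKI after FOXL2 siRNA already known. The values that chose SKI are its counts in these same libraries, so its difference is given as a description. KGN is a human granulosa cell line derived from an ovarian tumour, and the cells used here had been edited so that both of their FOXL2 alleles were wild-type, a genotype that all 6 libraries share. The cells received 30 pmol of siRNAs against FOXL2 (3 libraries) or with the same amount of a control, scrambled siRNA (3 libraries), and RNA was taken 30 h later for stranded mRNA sequencing. Each FOXL2 siRNA pool held 3 siRNAs out of 4, with 1 siRNA in every pool, so the FOXL2 siRNA libraries replicate the depletion while their siRNA mixtures differ. No source used here says that the libraries came from separate cultures, so p-values measure only the spread between these samples.

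SMAD proteins carry signals of the TGF-beta family from receptors at the membrane to the nucleus. SMAD2 and SMAD3 are phosphorylated by the receptors of TGF-beta and activin, SMAD1 and SMAD5 by those of BMPs, and each then joins SMAD4 and binds DNA. SMAD6 and SMAD7 inhibit the pathway at the receptors, SMURF2 marks SMADs and SKIL for degradation, and SKI and SKIL bind SMADs on DNA and recruit complexes with histone deacetylases, which keeps target genes silent. In the ovary, activins and BMPs act on granulosa cells, and FOXL2, a forkhead transcription factor of these cells, is known to work together with SMAD3 on the follistatin gene FST.

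The libraries held 23843192 to 28791954 expected counts each, over 23533 to 24675 genes with a count above 0. FOXL2 was at 248, 238 and 290 counts with control siRNA and at 72, 80 and 68 with FOXL2 siRNA, which was 26.0%, 32.6% and 23.3% of the control mean after normalisation. Its log2 fold change was -1.88 (SE 0.142, edgeR adjusted p = 0.00267). Of the granulosa cell genes checked, AMH, NR5A1, FST and KRT18 were expressed in every library, whereas FSHR was listed at 0 in all 6 and AMHR2, CYP19A1 and INHA did not exceed 5 counts. The theca cell markers CYP17A1, INSL3 and LHCGR did not exceed 1 count. Some markers of other cells were expressed in both conditions, SOX9 of Sertoli cells at 357 to 551 counts and PDGFRA and DCN of fibroblasts at 1336 to 1730 and 216 to 263. Other markers of these cells were lower, CLDN11 of Sertoli cells at 40 to 108 counts and LUM of fibroblasts at 9 to 21. DMRT1 of Sertoli cells did not exceed 1 count. The endothelial and blood cell markers did not exceed 33 counts. FOXL2 siRNA replicate 2 stood apart on the first principal component of all tested genes (34.8% of the variance, score 30.6 against -13.2 for the next most distant library), and the members' log2 fold changes are given below with and without it.

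The study asks whether FOXL2 binds RNA rich in G doublets, so the members' transcripts were searched for such runs. SKI lies on chromosome 1 (GRCh38, GENCODE v29, chr1:2228695-2310119, plus strand). Its longest annotated transcript, 5613 nucleotides in 7 exons, held 8 G doublets with gaps of 1 to 4 nucleotides at 2 places. The gaps could hold any letter, G included. This search is looser than the study's consensus, in which only the first gap reaches 4 nucleotides and some later gaps begin with A. Neither SKI stretch fits that consensus. They are shown because SKI is the member with the largest difference after FOXL2 siRNA. The first is in the 5′ UTR, in exon 1, at chr1:2228696-2228725, and the second is in the coding sequence, in exon 4, at chr1:2304053-2304081. Both are on the plus strand, with capitals marking the matched pairs of G. In the 5′ UTR stretch some of these pairs and gaps lie within longer runs of G.
SKI 5′ UTR: GGggcGGcGGcGGgGGccGGggGGgcccGG
SKI coding sequence: GGaGGacaaGGactcGGaGGcGGaGGtGG
The same pattern of letters, sought on the transcript strand alone, was in the longest transcript of 5 of the 10 members, against 19.3% of 15530 tested genes that had a transcript in the annotation. SMAD2 held 3 such places, SMAD6 and SMAD7 held 2 each and SMAD1 held 1. The longest transcripts of SMAD1 and SMAD6 have no annotated coding sequence. The places in SMAD2 lie in the 3′ UTR, from nucleotide 15618 onward. The effective length of SMAD2, RSEM's average over its transcripts, was only 1449 to 1606 nucleotides in these libraries. The 5′ UTR place in SKI begins at nucleotide 2 of its annotated transcript. Whether the cells' RNA of SKI, SMAD1, SMAD2, SMAD6 and SMAD7 holds the matched stretches was not tested. No match lay in the longest transcript of SKIL, SMAD3, SMAD4, SMAD5 or SMURF2. These transcripts differ in length, from 3293 nucleotides for SMAD1 to 34526 for SMAD2, and a match describes letters and no binding.

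All 10 members were expressed and passed the filter on low counts. Levels are compared between genes in TPM, which RSEM scales to transcript length. In the control siRNA libraries the ligase SMURF2 was highest, at 111.7 ± 6.35 TPM (SD, n = 3). The receptor-activated SMADs of the TGF-beta and activin branch and their partner followed, SMAD2 at 67 ± 5.07, SMAD3 at 59.1 ± 2.34 and SMAD4 at 53.5 ± 5.10 TPM. SMAD5, of the BMP branch, was at 41.0 ± 4.13 TPM, and SKI at 27.4 ± 1.28. SMAD7 (23.4 ± 1.04), SKIL (23.3 ± 2.05) and SMAD6 (19.7 ± 1.36) were close to each other, and SMAD1 was lowest at 7.27 ± 0.242 TPM. The ranges of SMAD2 and SMAD3, of SMAD3 and SMAD4, and of SMAD7 and SKIL overlapped, and those of the other neighbours did not, although the lowest SKIL (21.13) and the highest SMAD6 (21.12) all but met. SKI was thus the sixth of the 10 genes and above SKIL in the control cells. After FOXL2 siRNA it was ninth by mean TPM, below SMAD7, SKIL and SMAD6 and above SMAD1.

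The corepressor SKI was at 28.82, 26.82 and 26.45 TPM with control siRNA and at 15.19, 10.08 and 8.73 TPM with FOXL2 siRNA. Its normalised counts (CPM, counts scaled to TMM-normalised library sizes) were 98.3, 96.5 and 96.1 against 56.1, 34.5 and 28.0. The conditions did not overlap on either scale, as was so for 10.6% of all tested genes in CPM and 9.07% in TPM in this direction, and each FOXL2 siRNA library was below the lowest control by a margin larger than the range of the controls. The mean was 97.0 ± 1.20 CPM in control and 39.6 ± 14.7 CPM in FOXL2 siRNA cells (SD, n = 3), or 40.8% of control in CPM and 41.4% in TPM. The log2 fold change was -1.29 with an SE of 0.207. Of the 15663 genes tested, 25 had a more negative log2 fold change, and only 1 of these had a higher mean CPM than SKI. In bulk RNA, fewer cells that express a gene and less RNA per cell cannot be told apart.

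SKI sat at the limit of the test. Its adjusted p in edgeR was 0.0510, above the threshold of 0.05 that 0.255% of all tested genes passed (40 of 15663), and no member passed. In DESeq2, which called 3.06% of its genes, SKI was the only member called, with a log2 fold change of -1.30 and an adjusted p of 0.00324. SKI was also called by limma-voom (0.249% of genes called), in edgeR without filtering (0.228%), in edgeR on genes averaging 50 counts or more (0.512%), and by DESeq2 with effective lengths as offsets (2.97%) or with the replicate number as a block (1.92%). Over all alternatives tried its adjusted p ran from 0.000407 to 0.298 and its log2 fold change was negative in each. None of these values supports the choice of SKI, which was made from the same contrast.

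The size of the SKI difference was not the same in the 3 FOXL2 siRNA libraries. SKI was at 57.9%, 35.6% and 28.9% of the control mean CPM in replicates 1, 2 and 3, whereas FOXL2 itself was at 26.0%, 32.6% and 23.3%. The library with the most remaining SKI was not that with the most remaining FOXL2 by these values. The FOXL2 values rest on only 72, 80 and 68 counts, so their order is uncertain. Whether SKI follows FOXL2 across the libraries was not tested. The SD of log2 CPM of SKI was 0.514 among the FOXL2 siRNA libraries, at the 97.5th percentile of all tested genes (median 0.134). Among the control libraries it was 0.0178, at the 4.07th percentile (median 0.0883). Without FOXL2 siRNA replicate 1 the log2 fold change of SKI was -1.63 (edgeR adjusted p = 0.000467, with 0.658% of genes called), and without replicate 2 it was -1.21 (edgeR adjusted p = 0.0208, with 3.61% called). Without replicate 3 it was -1.10 and did not pass (edgeR adjusted p = 0.0909). Each FOXL2 siRNA library is labelled with a pool number, but no source used here says that these numbers follow those of the described mixtures, and the part of single siRNAs was not tested.

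**Figure D1:**
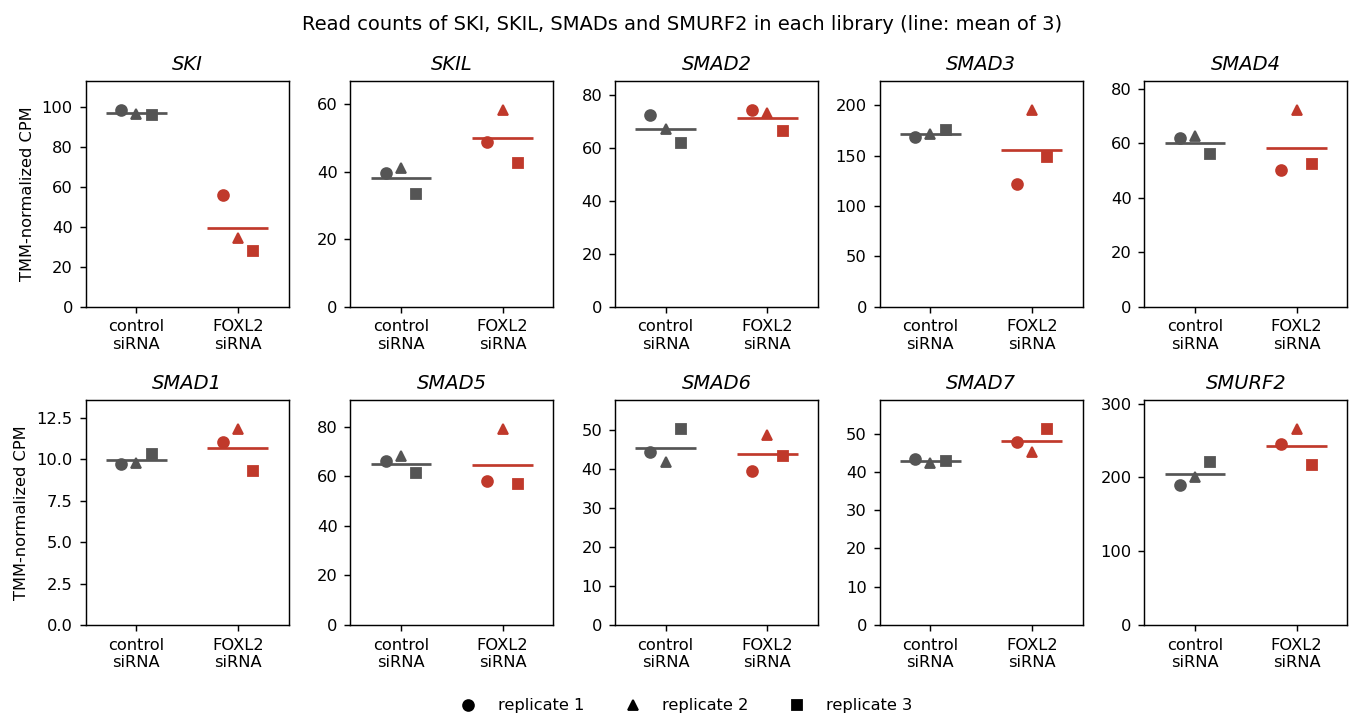
TMM-normalised CPM of each of the 10 genes in the 6 libraries, one point per library, with the mean of each condition as a line. SKI lies between 28.0 and 56.1 CPM after FOXL2 siRNA, below all 3 controls (96.1 to 98.3 CPM), and the other 9 genes show smaller differences.

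SKIL, the second corepressor of the family, differed in the other direction on the count scale. Its CPM were 39.7, 41.2 and 33.4 in control and 48.9, 58.2 and 42.7 in FOXL2 siRNA cells, which did not overlap. The log2 fold change was 0.39 (SE 0.122, edgeR adjusted p = 0.235). Non-overlap in this direction was found for 9.97% of all tested genes, and in either direction for 20.5%. In TPM the conditions overlapped, with 25.21, 23.59 and 21.13 in control and 31.01, 22.64 and 28.14 in FOXL2 siRNA cells. The second of these libraries had the highest SKIL count and the lowest TPM of its condition.

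The gap between the scales lies in the transcript length that RSEM assigned to SKIL. Its effective length was 2342, 2602 and 2291 nucleotides in the control libraries, 2311 and 2251 in FOXL2 siRNA replicates 1 and 3, and 4052 in replicate 2, which is 168% of the control mean. A gene's effective length is an average over its transcripts, weighted by how much of each RSEM estimated. In FOXL2 siRNA replicate 2, 2.96% of the tested genes had an effective length over 1.5 times their control mean, against 0.753% and 0.728% in the other FOXL2 siRNA libraries and 0.223% to 0.255% in the controls. SKIL was the only member among them, and SMAD5 in the same library was at 149.7%. When these lengths entered the fit as offsets, SKIL was at 0.22 on the log2 scale (edgeR adjusted p = 0.505), whereas SKI was at -1.27 (edgeR adjusted p = 0.0324, with 0.281% of genes called). Without replicate 2 and without offsets SKIL was at 0.26 (edgeR adjusted p = 0.212).

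**Figure D2:**
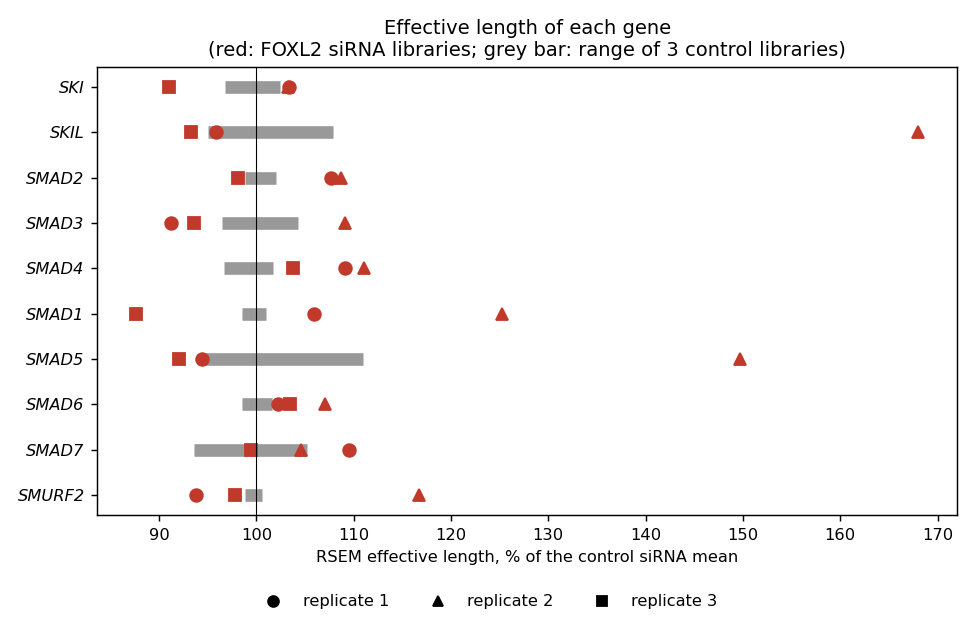
RSEM effective length of each of the 10 genes in each library, as a percent of the mean of the control siRNA libraries. SKIL (168%) and SMAD5 (149.7%) in FOXL2 siRNA replicate 2 stand above the other points.

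SMAD3, which conveys TGF-beta and activin signals, was at 168, 171 and 176 CPM in the control libraries and at 122, 195 and 149 CPM after FOXL2 siRNA. The FOXL2 siRNA libraries thus lay on both sides of the controls, with replicates 1 and 3 below and replicate 2 above them. The log2 fold change over all libraries was -0.15 (SE 0.141, edgeR adjusted p = 0.685). Without FOXL2 siRNA replicate 2 it was -0.35 (SE 0.0784, edgeR adjusted p = 0.0465), in a fit that called 3.61% of its genes. Without replicate 1 it was 0.00093. The TPM values, 58.73, 56.98 and 61.61 against 45.66, 65.66 and 54.99, had the same order as the CPM within FOXL2 siRNA cells.

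The ratio of SKI to each of these genes was taken within each library. The ratio of SKI to SKIL in TPM was 1.14, 1.14 and 1.25 in control and 0.490, 0.445 and 0.310 in FOXL2 siRNA cells, so that SKI exceeded SKIL in every control and was below it in every FOXL2 siRNA library. The mean log2 ratio differed by -1.53 in TPM and by -1.74 in CPM. For SKI to SMAD3 the ratio in TPM was 0.491, 0.471 and 0.429 against 0.333, 0.154 and 0.159, a difference of -1.20 in log2 ratio, and -1.18 in CPM. Neither ratio overlapped between the conditions. As SKI is in both ratios and was chosen for its difference, no test is given, and the smallest two-sided p of an exact permutation test with 3 libraries against 3 is 0.1. Leaving out each library in turn gave differences between -1.66 and -1.33 for SKI to SKIL and between -1.57 and -1.01 for SKI to SMAD3.

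**Figure D3:**
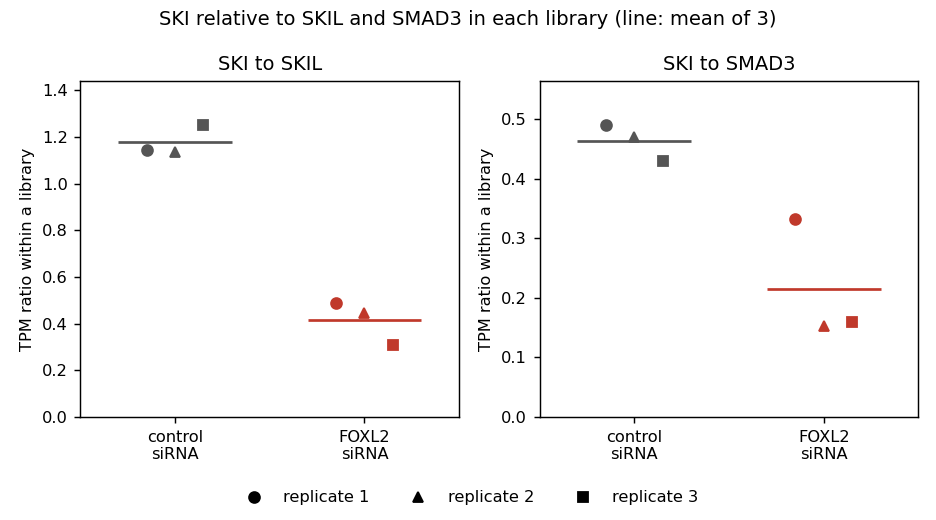
Ratio of SKI to SKIL and of SKI to SMAD3 within each library, in TPM, on a linear axis, one point per library, with the mean of each condition as a line. Controls lie between 1.14 and 1.25 and between 0.429 and 0.491, and FOXL2 siRNA libraries between 0.310 and 0.490 and between 0.154 and 0.333.

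The other receptor-activated SMADs did not pass the test. SMAD2, the partner of SMAD3 in the TGF-beta and activin branch, was at 72.3, 67.01 and 61.8 CPM in control and 74.2, 73.1 and 66.4 in FOXL2 siRNA cells, with a log2 fold change of 0.09 (SE 0.0785, edgeR adjusted p = 0.660). SMAD1, of the BMP branch and the least expressed member, was at 9.68, 9.79 and 10.3 CPM against 11.02, 11.8 and 9.26, with 0.10 (SE 0.114, edgeR adjusted p = 0.732). In both genes the conditions overlapped. Without FOXL2 siRNA replicate 2 SMAD1 was at 0.02 and SMAD2 at 0.06, and leaving out each library in turn gave 0.02 to 0.20 and 0.03 to 0.15. SMAD5, which acts beside SMAD1, was at 66.0, 68.0 and 61.1 CPM against 58.1, 79.0 and 56.9. SMAD4, the partner shared by both branches, was at 62.0, 62.7 and 56.0 CPM against 50.3, 72.0 and 52.2. Their log2 fold changes were -0.01 (SE 0.122, edgeR adjusted p = 0.985) and -0.05 (SE 0.130, edgeR adjusted p = 0.898).

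SMAD3, SMAD4 and SMAD5 shared 1 pattern across the FOXL2 siRNA libraries. Each was below every control in replicates 1 and 3 and above every control in replicate 2 in CPM, which held for 4.25% of the 15663 tested genes. In TPM this order held for 3.44% of them, among these SMAD3 and SMAD4 and not SMAD5, whose FOXL2 siRNA libraries lay between 35.39 and 38.95 TPM against 37.55 to 45.58 in control. Without replicate 2 the log2 fold changes were -0.24 for SMAD4 (SE 0.0698, edgeR adjusted p = 0.111) and -0.18 for SMAD5 (SE 0.0660, edgeR adjusted p = 0.194). Part of the reads of SMAD4 and SMAD5 was shared with other sequences, since their expected counts were not whole in 6 and 5 libraries, so their counts depend on how RSEM split those reads. The same was seen for SMURF2 in 2 libraries and for SMAD1 in 1, and for no library of SKI, SKIL, SMAD2, SMAD3, SMAD6 or SMAD7.

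Of the inhibitors, SMAD7 differed little and SMAD6 overlapped. SMAD7, itself a target of TGF-beta signalling that recruits SMURF ligases to the receptors, was at 43.4, 42.4 and 42.9 CPM in control and at 47.7, 45.3 and 51.2 in FOXL2 siRNA cells. These did not overlap, but the TPM did, from 22.61 to 24.59 in control and from 23.54 to 28.2 in FOXL2 siRNA cells, and the log2 fold change of 0.16 did not pass (SE 0.0694, edgeR adjusted p = 0.349). SMAD6, which mainly restrains BMP signalling, was at 44.4, 42.0 and 50.4 CPM against 39.5, 48.8 and 43.4, with -0.05 (SE 0.0990, edgeR adjusted p = 0.847), and -0.14 without FOXL2 siRNA replicate 2. SMURF2 was at 190, 201 and 222 CPM in control and 246, 266 and 217 in FOXL2 siRNA cells, where replicate 3 lay within the controls. In TPM it did not overlap, with 106.16, 110.42 and 118.65 against 142.45, 133.22 and 122.19, as was so for 9.3% of all genes in this direction. Its log2 fold change was 0.25 (SE 0.0875, edgeR adjusted p = 0.281). Without FOXL2 siRNA replicate 2 SMAD7 was at 0.20 and SMURF2 at 0.18.

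Over the 10 members the median log2 fold change was 0.04, against 0.01 over all tested genes, with 5 values below 0 and 5 above. An unadjusted edgeR p below 0.05 was found for SKI, which was lower, and for SKIL, SMAD7 and SMURF2, which were higher, beside 13.5% of all genes (6.88% lower and 6.62% higher). In CPM, 1 member (SKI) lay lower and 2 (SKIL and SMAD7) lay higher with no overlap, beside 10.6% and 9.97% of all genes. SKI was used by the choice of the members, so nothing is read from its part in these counts.

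**Figure D4:**
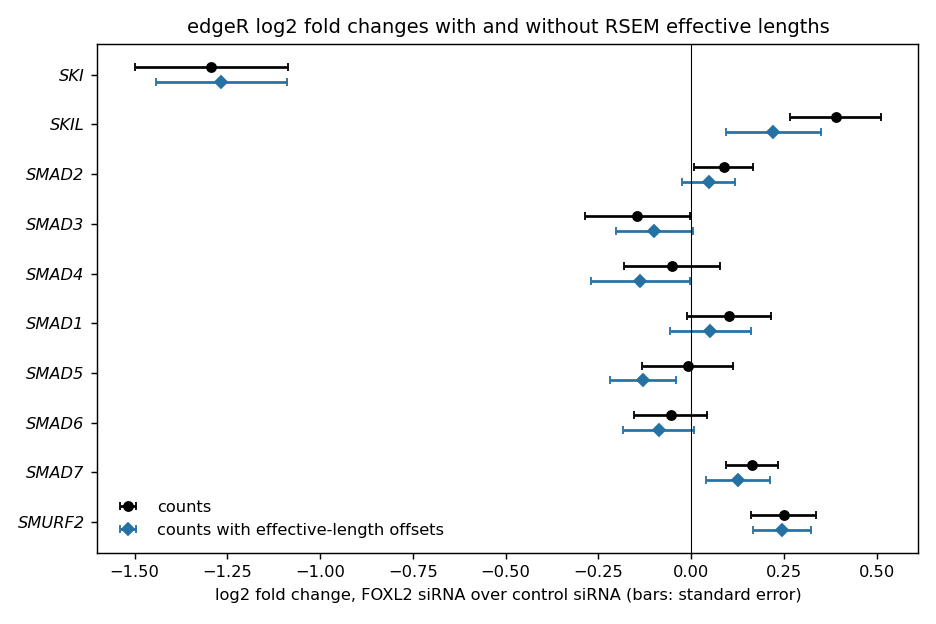
Log2 fold change (FOXL2 siRNA against control siRNA) of the 10 genes from edgeR, on counts and on counts with effective-length offsets, with bars of 1 SE. On counts, SKI is at -1.29 and the other genes lie between -0.15 and 0.39. With the offsets, SKI is at -1.27 and the other genes lie between -0.14 and 0.24.

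Another 80 genes of the pathway were followed from lists of SMAD regulators, partners and targets, of which 71 passed the filter. None passed the edgeR test, 20 had an unadjusted p below 0.05 (28.2%, beside 13.5% of all genes; 10 lower and 10 higher) and 24 did not overlap in CPM (33.8%, beside 20.5%; 11 lower and 13 higher). Their median log2 fold change was -0.02. DESeq2 called 5 of them, 3 higher and 2 lower, and of these NEDD4L, THBS1 and ACTA2, which were higher, and COL3A1, which was lower, are named below because of that call.

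Among the coactivators, corepressors and DNA-binding partners of SMADs, 8 of 15 tested genes did not overlap in CPM (53.3%, beside 20.5% of all genes). Of these, 5 were lower and 3 higher, and the list median was -0.08. The histone deacetylase HDAC1 was at 140 ± 2.20 CPM against 93.9 ± 32.4, with -0.57 (SE 0.193, edgeR adjusted p = 0.267, DESeq2 adjusted p = 0.356). SIN3A, a scaffold of deacetylase complexes, was at -0.23, the repressor ZEB1 at -0.23 and the acetyltransferase EP300 at -0.15. The transcription factor RUNX1 (0.21) and the repressor TGIF1 (0.10) lay above their controls. None of these values passed the edgeR test. SKOR1 and SKOR2, the other relatives of SKI, did not exceed 6 counts in any library and were not tested.

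Of the ubiquitin ligases and deubiquitinases, 2 of 10 tested genes did not overlap (20%, beside 20.5% of all genes), both higher. The list median was -0.02. NEDD4L, a ligase of activated SMAD2 and SMAD3, was at 68.3 ± 4.43 CPM in control and 86.3 ± 8.88 in FOXL2 siRNA cells (SD, n = 3), a log2 fold change of 0.34 (edgeR adjusted p = 0.160, DESeq2 adjusted p = 0.0330). With effective-length offsets it was at 0.14 (edgeR adjusted p = 0.658). WWP1, a related ligase, was at 37.2 ± 1.07 against 25.9 ± 9.23 CPM, with overlap. Of the anchors, phosphatases and other regulators, 4 of 13 did not overlap (30.8%, beside 20.5% of all genes), 2 in each direction. TOB1, which binds SMADs of the BMP branch, had the largest of these differences at 0.25 (SE 0.0851, edgeR adjusted p = 0.267).

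Of the genes known to be induced by TGF-beta or activin, 8 of 24 tested did not overlap (33.3%, beside 20.5% of all genes). Of these, 5 were higher and 3 lower, and the list median was 0.01. ACTA2, smooth muscle actin, was at 169 ± 28.8 CPM in control and 228 ± 35.3 in FOXL2 siRNA cells (SD, n = 3), with a log2 fold change of 0.44 (edgeR adjusted p = 0.233, DESeq2 adjusted p = 0.0331). THBS1, a matrix protein that activates latent TGF-beta, was at 2157 ± 121 against 2586 ± 46.8 CPM, with 0.26 (edgeR adjusted p = 0.131, DESeq2 adjusted p = 0.0104). CCN2, also known as CTGF, was at 0.26 and did not pass either test. Of the fibrillar collagens, COL3A1 (-0.32, DESeq2 adjusted p = 0.0278) and COL1A2 (-0.19) lay below their controls and COL1A1 (-0.02) overlapped, and FN1, fibronectin, was at -0.12. Of the genes induced by BMPs, 2 of 11 did not overlap (18.2%, beside 20.5% of all genes). The larger of these differences was that of GREM1, a BMP antagonist, at 0.38 (SE 0.199, edgeR adjusted p = 0.439), from 45 to 80 counts in the 6 libraries.

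**Figure D5:**
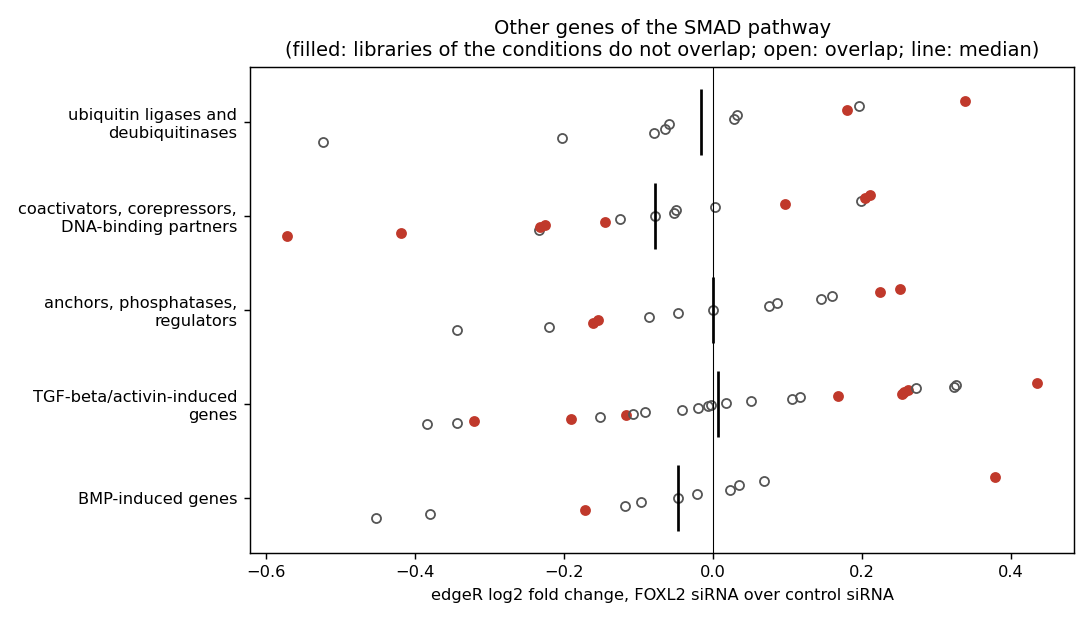
Log2 fold change of each tested gene of the pathway lists beside the 10 members, one point per gene, by list, with the list median as a line. Points lie between -0.57 (HDAC1) and 0.44 (ACTA2), and each list median lies between -0.08 and 0.01.

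The genes whose CPM across the 6 libraries most resembled those of SKI were DYM, WDR5, ALX4, BTBD7 and ENSG00000272410, with Pearson's r of log2(CPM + 0.5) of 0.9933, 0.9914, 0.9902, 0.9898 and 0.9859. WDR5, a subunit of histone methyltransferase complexes, was at 68.3, 66.4 and 69.3 CPM in control and 56.2, 43.4 and 43.0 in FOXL2 siRNA cells. ALX4, a homeodomain transcription factor, was at 5.74, 4.98 and 5.34 against 3.48, 2.40 and 2.29 CPM. As in SKI, FOXL2 siRNA replicate 1 lay nearest to the controls in each of these 5 genes. This order largely follows from choosing them for their likeness to SKI. The points are 6 libraries in 2 conditions, 89 of 15662 genes had r above 0.95 and 249 above 0.9, so the likeness is a description.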

How the data were processed

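The authors aligned single reads with STAR 2.7.6a, checked them with Picard 2.8.1 and estimated expression with RSEM 1.3.1. The submitters' processing notes name a mouse genome build, whereas the gene identifiers are human, and the annotation release is not given in the sources used here. The deposited tables hold, for 60671 genes, RSEM's expected count (an estimated count, not normalized), TPM scaled by the authors' run of RSEM to library and transcript length, and the length and effective length of each gene in that library. FPKM values were not used. Of the expected counts above 0, 66.8% to 69.1% were whole. Symbols were found for 60401 genes.

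Expected counts were rounded, filtered with filterByExpr (15663 genes kept), normalized by TMM and compared with edgeR 4.0.16 (glmQLFit with its newer estimate of the quasi-dispersion, glmQLFTest, Benjamini-Hochberg adjustment over all tested genes, threshold 0.05) in R 4.3.3. The estimate, and DESeq2 on all genes, follow earlier processing of these data and were settled after call counts were seen. Alternatives used DESeq2 1.42.0, limma 3.58.1, RSEM's effective lengths as offsets, other filters and each library left out. The scripts were tested on simulated data. Errors are SDs of 3 libraries. The total counts of 23843192 to 28791954 per library limit the precision of low genes most.

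The members and the lists were chosen with earlier results of these data known. Genes named from a list were those with an adjusted p below 0.05 or, where there was none, the gene with the largest difference whose conditions did not overlap. Others were named after their values were seen. Transcripts and sequences were read from GENCODE v29 on GRCh38, a release the authors may not have used. A planned comparison of protein sequences was not made. Some genes of the lists are counted but their values are not reported here.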

Additional observations from a re-analysis of the deposited data

How the results depend on the processing

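SKI was lower after FOXL2 siRNA under every alternative run. It passed the threshold of 0.05 with DESeq2 (log2 fold change -1.30), limma-voom (-1.36), effective-length offsets in edgeR (-1.27) and DESeq2 (-1.27), no filter on low counts (-1.30) and a mean of at least 50 counts (-1.29). It did not pass with limma on log2(TPM + 1) (adjusted p = 0.0966) or log2(TPM + 0.1) (0.0863), DESeq2's size factors in edgeR (0.0522) or the older quasi-dispersion (0.0530). Leaving out each library in turn gave -1.63 to -1.10, with 0 to 2 members and 2 to 579 genes called. Adjusted p-values of SKI were 0.177 to 0.298 without a control library and 0.000467, 0.0208 and 0.0909 without FOXL2 siRNA replicates 1, 2 and 3, and the cause was not tested. SKI, 1 of the 10 members, was the only member called under each of the 6 settings named first. The count of 40 genes called became 353 with DESeq2, 354 with its offsets, 13 with limma on log2(TPM + 1), 13 on log2(TPM + 0.1), 70 with no filter, 64 with a mean of at least 50 counts and 5 at an adjusted p below 0.01. It was 41 with the older quasi-dispersion, an alternative chosen after seeing the data. In the pathway lists DESeq2 called 5 genes in place of 0.

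Same-numbered libraries did not deviate together (r = -0.0533, 0.0538 and 0.0677). These values cannot settle whether the numbers mark a shared day or culture, which no source used here states. With the replicate number as a block, edgeR called 11 genes and no member (SKI adjusted p = 0.0892), and DESeq2 called 189 genes and 2 members, SKI (-1.36) and SKIL (adjusted p = 0.0490).

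Differences near 0 changed sign when a library was left out, over ranges of -0.35 to 0.00093 for SMAD3, -0.24 to 0.042 for SMAD4, -0.18 to 0.073 for SMAD5 and -0.14 to 0.022 for SMAD6. SMAD3 became 0.00093 without FOXL2 siRNA replicate 1. SMAD4 became 0.042 and 0.018 without FOXL2 siRNA replicates 1 and 3. SMAD5 became 0.0011 and 0.022 without control replicates 1 and 2, and 0.061 and 0.073 without FOXL2 siRNA replicates 1 and 3. SMAD6 became 0.022 without control replicate 3 and 0.015 without FOXL2 siRNA replicate 1. With 3 libraries a condition, the SE of 0.0694 to 0.207 of the members' log2 fold changes leaves small differences undetectable.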
